A study of Mus musculus with 12 samples.

Results

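The 10 muscle genes described here mark satellite cells, muscle differentiation and loss of nerve supply, and were followed across wild-type (WT) and GPR120 knockout (KO) mice on a normal diet (ND) or a high fat diet (HFD). They are the satellite cell factor Pax7, the myogenic regulatory factors Myf5, Myod1, Myog and Myf6, the denervation-linked regulators Runx1 and Dach2, the acetylcholine receptor subunits Chrna1 and Chrng, and the adhesion molecule Ncam1. The 10 genes were matched by symbol to 26 probe sets on the arrays, and the brightest probe set stood for each gene. Of the 10 genes, 9 were among the 11345 tested and 1, Chrng, was too dim. Muscle RNA came from 12 mice of 16 weeks, with 3 mice in each of 4 groups (WT ND, WT HFD, KO ND and KO HFD), each mouse on 1 one-colour array. All mice had a mixed 129/Sv and C57BL/6 background, and the KO mice lacked GPR120, which senses long-chain fatty acids and is encoded by Ffar4. The sources used here do not give how the knockout was made, the sex of the mice, the muscle taken or how long the diet lasted. Mouse numbers lie in a range of their own for each group, so group and cohort cannot be told apart in any comparison here. Every value is a log2 signal per probe set, and 3 arrays per group limit the precision of each.

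Satellite cells are the resident stem cells of muscle, lie beside the fibres and express Pax7. When they are activated they make Myf5 and Myod1, and Myog and Myf6 follow as the cells differentiate and fuse, although Myf6 also stays high in adult fibres. These 4 myogenic factors are basic helix-loop-helix proteins that bind E-boxes, short DNA elements in muscle promoters. Innervated fibres keep Myog, Runx1, the fetal receptor subunit Chrng and Ncam1 low outside the synapse. After denervation these genes are induced, while Dach2, a corepressor that holds Myog down, is reduced.

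The promoters of 4 of these genes are shown with their E-boxes marked, since these are the letters that myogenic factors can bind. Myog and Dach2 were chosen because they changed in these data, and the receptor genes Chrna1 and Chrng because they are textbook targets of myogenic factors. The sequences are the 250 bases before the most 5′ listed start of each gene, from RefSeq on GRCm38.p6, 5′ to 3′ on the gene's strand. Capitals mark every E-box, spelled CANNTG, which reads the same on both strands. The windows are chr1:134289754-134290003 on the plus strand for Myog, chrX:113297260-113297509 on the plus strand for Dach2, chr2:73580339-73580588 on the minus strand for Chrna1 and chr1:87205561-87205810 on the plus strand for Chrng.
Myog: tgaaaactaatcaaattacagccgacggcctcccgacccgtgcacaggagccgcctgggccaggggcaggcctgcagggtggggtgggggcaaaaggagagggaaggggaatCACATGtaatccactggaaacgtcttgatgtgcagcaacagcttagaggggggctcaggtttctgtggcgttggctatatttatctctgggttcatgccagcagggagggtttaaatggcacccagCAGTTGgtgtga
Dach2: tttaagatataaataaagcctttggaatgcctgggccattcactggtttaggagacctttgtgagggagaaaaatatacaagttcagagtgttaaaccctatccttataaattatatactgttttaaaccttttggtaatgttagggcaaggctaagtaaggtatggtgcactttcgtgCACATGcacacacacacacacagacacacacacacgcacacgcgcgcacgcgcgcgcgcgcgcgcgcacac
Chrna1: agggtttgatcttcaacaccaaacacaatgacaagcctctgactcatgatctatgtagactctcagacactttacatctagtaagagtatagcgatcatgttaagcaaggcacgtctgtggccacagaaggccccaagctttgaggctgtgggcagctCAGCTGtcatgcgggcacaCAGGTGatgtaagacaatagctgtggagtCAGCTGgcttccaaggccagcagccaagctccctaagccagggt
Chrng: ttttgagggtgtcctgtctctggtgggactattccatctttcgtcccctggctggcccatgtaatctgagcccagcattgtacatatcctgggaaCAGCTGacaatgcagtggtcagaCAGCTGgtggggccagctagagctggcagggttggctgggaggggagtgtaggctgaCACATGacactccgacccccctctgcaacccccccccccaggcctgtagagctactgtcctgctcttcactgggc

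The Myog window held 2 E-boxes, CACATG starting 138 bases and CAGTTG starting 12 bases before the start. The Dach2 window held 1, CACATG at 71 bases. Chrna1 held 3, at 92, 73 and 44 bases, of which the first and last were CAGCTG, a form that overlaps the general spelling. Chrng also held 3, at 155, 132 and 75 bases, with CAGCTG at the first and the second. At least 1 E-box stood in 66.2% of 32851 promoter windows of the same length, and at least 3 in 12.2%. The form CAGCTG was rarer, with at least 1 in 13.0% and at least 2 in 1.26% of windows. Windows were listed for 7 of the 10 genes, and Runx1 had 3 E-boxes before the more 5′ of its listed starts. The windows of Pax7, of Myf5 and of the second listed starts of Runx1 and Dach2 held 0. A match is a description of these letters and does not show binding.

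The arrays carried the signature of skeletal muscle. All 13 fibre markers were tested, with mean log2 signals between 11.43 (Myh7, slow myosin) and 13.97 (Tnnt3, fast troponin T). The 3′ over 5′ log2 ratio of the beta-actin and Gapdh controls, a sign of RNA integrity, had higher means on the high fat diet. It was −0.02 ± 0.09 in WT ND, 0.18 ± 0.02 in WT HFD, 0.07 ± 0.06 in KO ND and 0.16 ± 0.13 in KO HFD (SD, n = 3). A fit adjusted for this integrity ratio is named below where it changes a call, and the part of RNA integrity in the results was otherwise not tested. Of the markers of other cells, 1 of 8 endothelial, 1 of 9 fibroblast and 0 of 6 adipocyte genes were higher with the diet in WT. In KO these counts were 0, 4 and 1, with 1 endothelial gene lower. Over all genes 3.07% were higher with the diet in WT and 2.66% in KO, so low counts in lists this short do not show a lack of change.

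On the high fat diet Dach2 and Pax7 rose and Runx1 fell in WT muscle, while Myog fell in KO muscle. On the normal diet Myog was higher in KO than in WT. A call is an adjusted p below 0.05 in limma, with Benjamini-Hochberg adjustment over all 11345 genes. The Dach2 call in WT and the Myog call in KO were kept under every alternative run. Pax7 was lost in 6 of 23, Runx1 in WT in 6 of 24 and Myog on the normal diet in 15 of 23. The 23 for Pax7 leave out a filter at the 65th percentile, under which Pax7 was too dim to be tested. All Pax7 values in WT ND lay below the signal filter. In WT 3 of 9 tested genes passed for diet, where 6.06% of all genes did. In KO 1 of 9 passed, against 4.54% of all genes. For genotype, 1 of 9 passed on the normal diet, against 0.414% of all genes, and 0 of 9 on the high fat diet, against 0.732%. Of those 9, 1 had an unadjusted p below 0.05 on the high fat diet, which was Dach2. The interaction of genotype and diet called 0 of 9 in limma, against 0.141% of all genes, with 3 of 9 at an unadjusted p below 0.05. A difference between genotypes in the diet response was therefore not shown for any of them. Averaged over genotypes 3 of 9 passed for diet, against 13.7% of all genes, and averaged over diets 0 of 9 passed for genotype in limma, against 1.61%, with 3 of 9 at an unadjusted p below 0.05. Signals were fully separated by diet for 3 of these 9 in each genotype, against 26.7% of all genes in WT and 26.5% in KO. Arrays of the different genotypes did not overlap for 3 of 9 on the normal diet, against 17%, and for 2 of 9 on the high fat diet, against 19.4%. These last shares lie near the background and set the 9 genes apart in no comparison. The genes were chosen with earlier results of these data known, so none of the shares above is a test of them as a set. The median log2 difference over the 9 genes was 0.26 for diet in WT and −0.14 for diet in KO, beside 0.04 and 0.05 over all genes.

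**Figure D1:**
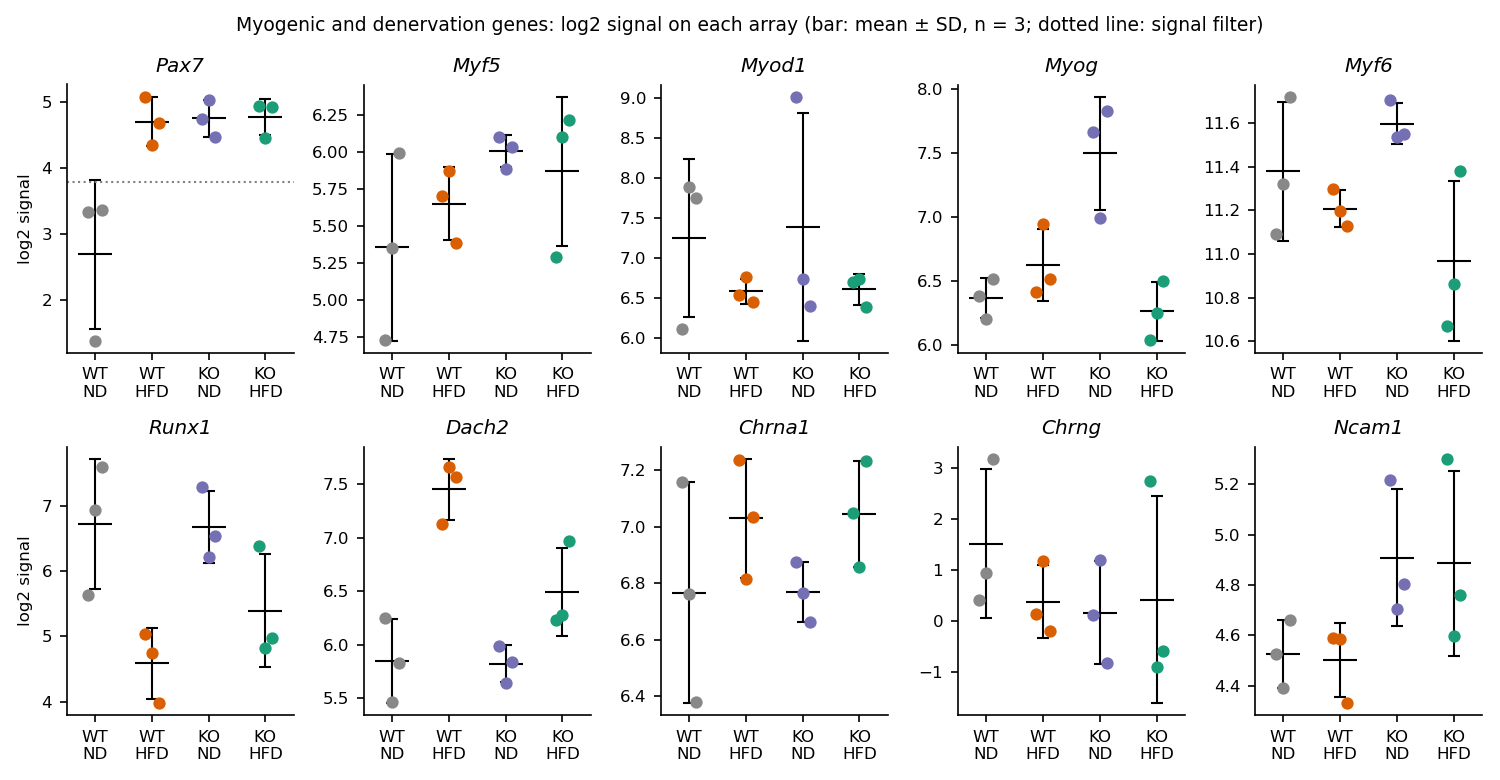
Log2 signal of the 10 genes (vertical axes, one scale per gene) on each of the 12 arrays, by group, with the mean and SD of 3 mice. On its brightest probe set Pax7 is low in WT ND alone, at 1.38 to 3.35. Dach2 is highest in WT HFD, at 7.13 to 7.66, and Myog is highest in KO ND, at 6.99 to 7.83.

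Pax7, the transcription factor that defines satellite cells, was low in 1 group on its brightest probe set. It read 3.32, 1.38 and 3.35 in WT ND, 5.08, 4.35 and 4.68 in WT HFD, 4.75, 5.04 and 4.47 in KO ND, and 4.95, 4.45 and 4.92 in KO HFD. The WT ND arrays lay below all 9 others, and the other 3 groups overlapped. An array group lay wholly below the rest in this way for 3.13% of all genes in WT ND. Pax7 rose with the high fat diet in WT by 2.02 on the log2 scale (SE 0.48, n = 3 per group, limma adjusted p = 0.0283), a size that is uncertain and given without a fold, since all WT ND values lay below the signal filter (a mean log2 signal of 3.78). In KO the diet difference was 0.02 (95% interval −1.02 to 1.07). On the normal diet KO was 2.07 above WT, which did not pass (adjusted p = 0.0947), and these comparisons share the WT ND arrays.

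With an offset of 16.5 added on the linear scale the Pax7 difference was 0.84 (limma adjusted p = 0.0210). The call was lost without WT ND replicate 2 (1.37, adjusted p = 0.0690), WT HFD replicate 1 (1.83, adjusted p = 0.0879), replicate 2 (2.20, adjusted p = 0.0540) or replicate 3 (2.03, adjusted p = 0.0620), and in a fit of only the 6 WT arrays (adjusted p = 0.113). The second Pax7 probe set averaged 3.02, below the filter, and gave another order of groups. It was at 2.59 in WT ND, 3.72 in WT HFD, 2.20 in KO ND and 3.57 in KO HFD. The probe sets thus pointed the same way for diet in WT (2.02 and 1.13, the second with adjusted p = 0.316 in its own fit) and opposite ways for KO against WT on the normal diet (2.07 and −0.39). For diet in KO they differed in size, at 0.02 and 1.37. In bulk muscle, fewer cells of a type and less RNA per cell cannot be told apart.

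Myf5, which marks satellite cells committed to muscle, passed in 0 comparisons. It read 4.73, 5.35 and 5.99 in WT ND, 5.70, 5.87 and 5.38 in WT HFD, 6.10, 5.89 and 6.03 in KO ND, and 5.29, 6.10 and 6.21 in KO HFD. All 4 groups overlapped with at least 1 other, and the widest gap between means was KO ND over WT ND, at 0.65 (95% interval −0.02 to 1.31, limma adjusted p = 0.461). Its diet difference was 0.29 in WT (95% interval −0.37 to 0.96) and −0.14 in KO (−0.80 to 0.53).

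Myod1, the factor that commits activated cells to the muscle lineage, varied widely among mice on the normal diet. It read 6.12, 7.89 and 7.75 in WT ND, 6.54, 6.76 and 6.46 in WT HFD, 9.01, 6.75 and 6.41 in KO ND, and 6.71, 6.74 and 6.39 in KO HFD. The 3 highest values were all in mice on the normal diet, and the 6 mice on the high fat diet lay within 6.39 to 6.76. The SD was 0.99 in WT ND and 1.42 in KO ND, against 0.16 in WT HFD and 0.20 in KO HFD. Averaged over genotypes the diet difference was −0.72 (95% interval −1.57 to 0.13, limma adjusted p = 0.251), so a difference could not be called at this spread. The second Myod1 probe set averaged 3.13, below the filter.

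Myog, myogenin, the factor that drives terminal differentiation, was high in KO muscle on the normal diet. It read 6.38, 6.21 and 6.52 in WT ND, 6.42, 6.95 and 6.52 in WT HFD, 7.67, 6.99 and 7.83 in KO ND, and 6.04, 6.25 and 6.50 in KO HFD. The KO ND arrays lay above all 9 others, with KO ND replicate 2 only just above the highest WT HFD array. A group lay wholly above the rest in this way for 0.855% of all genes in KO ND. Myog fell with the high fat diet in KO by 1.23 (SE 0.22, limma adjusted p = 0.00856), which is 2.35-fold lower. This call was kept under all 23 alternatives run, leaving out each mouse included, with values from −1.49 to −1.07. In WT the diet difference was 0.26 (95% interval −0.22 to 0.73). The interaction was −1.49 (SE 0.31, adjusted p = 0.0960), which did not pass, so the genotypes were not shown to differ in the response of Myog.

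On the normal diet Myog was 1.13 higher in KO than in WT (SE 0.22, 2.19-fold, limma adjusted p = 0.0466). This value shares the KO ND arrays with the diet effect in KO. The call lay close to the threshold and was lost in 8 of 12 fits that left out 1 mouse, at adjusted p = 0.0575 to 0.198 and values of 0.96 to 1.38 over the 12 fits. It was kept without WT HFD replicate 1 or 2, KO ND replicate 2 or KO HFD replicate 1. Adjusted for the integrity ratio it was 1.25 (adjusted p = 0.0642), and on the high fat diet KO was at −0.36 relative to WT (adjusted p = 0.475). Myog has a single probe set here. Fibroblast markers moved with diet in KO as well: the summed signal of 9 tested genes was 9788 to 10890 in WT ND, 8215 to 12370 in WT HFD, 10420 to 11320 in KO ND and 13490 to 18970 in KO HFD. The KO diets were also apart for the sum of 6 adipocyte markers (7120 to 11240 in KO ND and 15590 to 17240 in KO HFD). The same held for 11 macrophage markers (2911 to 3948 and 4828 to 8425) and 6 lymphocyte, granulocyte and mast cell markers (272.4 to 360.9 and 394.5 to 571.7). The part of these cells in the Myog values was not tested.

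Myf6 (MRF4), the myogenic factor that persists in mature fibres, fell slightly with diet. It read 11.09, 11.32 and 11.72 in WT ND, 11.30, 11.20 and 11.13 in WT HFD, 11.71, 11.54 and 11.55 in KO ND, and 10.67, 10.86 and 11.38 in KO HFD. The WT groups overlapped, and the KO groups did not. Averaged over genotypes Myf6 fell by 0.40 (SE 0.12, limma adjusted p = 0.0425), in a comparison that called 13.7% of all genes. The value was −0.17 in WT (adjusted p = 0.596) and −0.63 in KO (adjusted p = 0.0526). The KO value passed without WT ND replicate 1 (−0.63, adjusted p = 0.0440), WT ND replicate 3 (−0.63, adjusted p = 0.0362) or KO HFD replicate 3 (−0.83, adjusted p = 0.0207). The averaged call was lost in 10 of 12 fits that left out 1 mouse, all but those without WT ND replicate 1 or KO HFD replicate 3, at adjusted p = 0.0549 to 0.0944. It was also lost with no filter on dim probe sets (adjusted p = 0.0598), with no intensity trend (adjusted p = 0.0946), with array weights (−0.35, adjusted p = 0.0658) and after adjustment for the integrity ratio, where the value moved to −0.14 (adjusted p = 0.627).

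**Figure D2:**
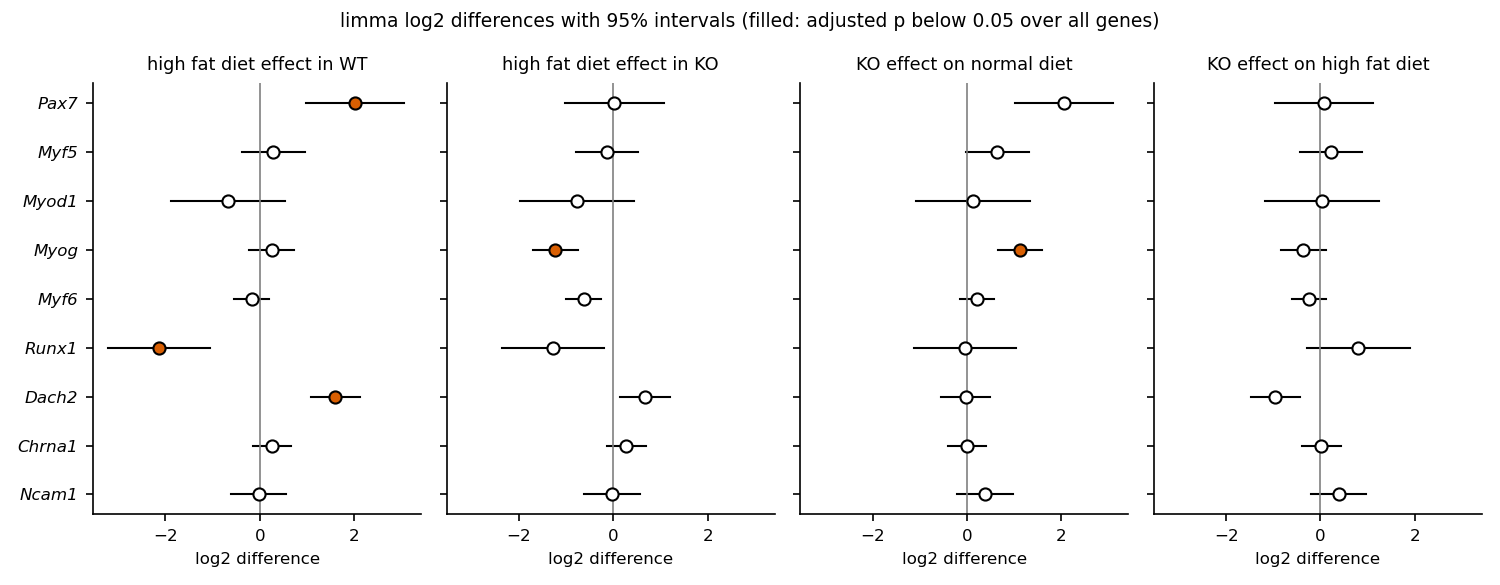
Log2 differences (horizontal axes) of the 9 tested genes in the 4 comparisons of single groups, with 95% intervals from limma. Filled points passed an adjusted p of 0.05. Dach2 rises and Runx1 falls with diet in WT, Myog falls with diet in KO, and 0 genes pass for KO on the high fat diet.

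Runx1, a transcription factor that rises in denervated fibres and is also made by blood cells, was lower on the high fat diet. It read 5.63, 6.94 and 7.59 in WT ND, 5.04, 4.75 and 3.98 in WT HFD, 7.29, 6.22 and 6.53 in KO ND, and 6.39, 4.83 and 4.97 in KO HFD. The WT diets did not overlap. In KO 2 of 3 HFD arrays lay below all KO ND arrays, and KO HFD replicate 1 lay within their range. Averaged over genotypes Runx1 fell by 1.71 (SE 0.36, 3.27-fold lower, limma adjusted p = 0.00755), a call kept under all 23 alternatives run. In WT it fell by 2.13 (SE 0.50, adjusted p = 0.0260), and in KO the value was −1.28 (95% interval −2.37 to −0.20, adjusted p = 0.171). The difference between the genotypes' diet effects was 0.85 (adjusted p = 0.717), so they were not shown to differ.

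The WT call for Runx1 was lost without WT ND replicate 2 (−2.02, limma adjusted p = 0.102), WT ND replicate 3 (−1.70, adjusted p = 0.108), WT HFD replicate 2 (−2.21, adjusted p = 0.0599) or WT HFD replicate 3 (−1.83, adjusted p = 0.0812), with no intensity trend in the moderation (adjusted p = 0.0703) and after adjustment for the integrity ratio (−2.64, adjusted p = 0.0806). Runx1 has 6 probe sets, of which 4 averaged above the filter. Their diet differences were below 0 in 6 of 6 in WT (−3.15 to −0.21) and in 6 of 6 in KO (−1.76 to −0.0014), on the same arrays. The second brightest read 4.08, 5.98 and 5.97 in WT ND, 4.02, 1.34 and 2.63 in WT HFD, 6.08, 5.53 and 4.92 in KO ND, and 4.80, 2.47 and 3.99 in KO HFD.

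Blood cells that also make Runx1 were followed by their markers. The summed linear signal of 11 tested macrophage markers was 4273 to 4712 in WT ND, 2526 to 5263 in WT HFD, 2911 to 3948 in KO ND and 4828 to 8425 in KO HFD. In WT 0 of 11 passed for diet in limma, where 6.06% of all genes did. In KO 4 of 11 were higher, against 2.66% of all genes. A count of 0 in a list this short does not show a lack of change. In WT 0 of 6 and in KO 1 of 6 tested lymphocyte, granulocyte and mast cell markers were higher, against 3.07% and 2.66% of all genes. Their sum was 267.1 to 324.8 in WT ND, 300.1 to 528.4 in WT HFD, 272.4 to 360.9 in KO ND and 394.5 to 571.7 in KO HFD. The T cell markers Cd3e, Cd3g, Cd4 and Cd8a, the B cell markers Cd79a and Cd79b, and Kit, Nkg7 and Itgam stayed below the filter. In WT, where Runx1 fell, both sums overlapped between the diets. The WT median went from 4483 to 3643 for the macrophage sum and from 301.3 to 371.4 for the other. In KO, where the Runx1 difference was below 0 and did not pass, both sums were higher on the high fat diet without overlap. The part of these cells in the Runx1 values was not tested.

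Dach2, the corepressor that restrains Myog in innervated muscle, had the lowest p of the 9 genes for diet in WT. It read 6.25, 5.47 and 5.83 in WT ND, 7.13, 7.66 and 7.56 in WT HFD, 5.98, 5.64 and 5.84 in KO ND, and 6.23, 6.28 and 6.97 in KO HFD. The diets did not overlap in either genotype, and the WT HFD arrays lay above all 9 others, as they did for 2.31% of all genes. The groups on the normal diet overlapped each other. Dach2 rose in WT by 1.60 (SE 0.24, 3.03-fold, limma adjusted p = 0.00310), and by 1.14 averaged over genotypes (SE 0.17, adjusted p = 0.00127). Both calls were kept under every alternative run, with values from 1.36 to 2.16 in WT and 0.96 to 1.55 averaged.

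In KO the Dach2 diet difference was 0.67 (SE 0.24, adjusted p = 0.139 in limma). It passed with array weights (0.82, adjusted p = 0.0466) and after adjustment for the integrity ratio (0.93, adjusted p = 0.0362). On the high fat diet KO was at −0.96 relative to WT (adjusted p = 0.0791), which passed with that adjustment (−0.99, adjusted p = 0.0389). These values share the KO HFD arrays. The interaction was −0.93 (adjusted p = 0.369). The second Dach2 probe set read 3.93, 4.02 and 4.08 in WT ND, 4.73, 5.67 and 5.86 in WT HFD, 3.93, 3.59 and 3.56 in KO ND, and 4.60, 4.81 and 5.09 in KO HFD. On it, too, the diets did not overlap in either genotype, with differences of 1.41 in WT and 1.14 in KO.

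**Figure D3:**
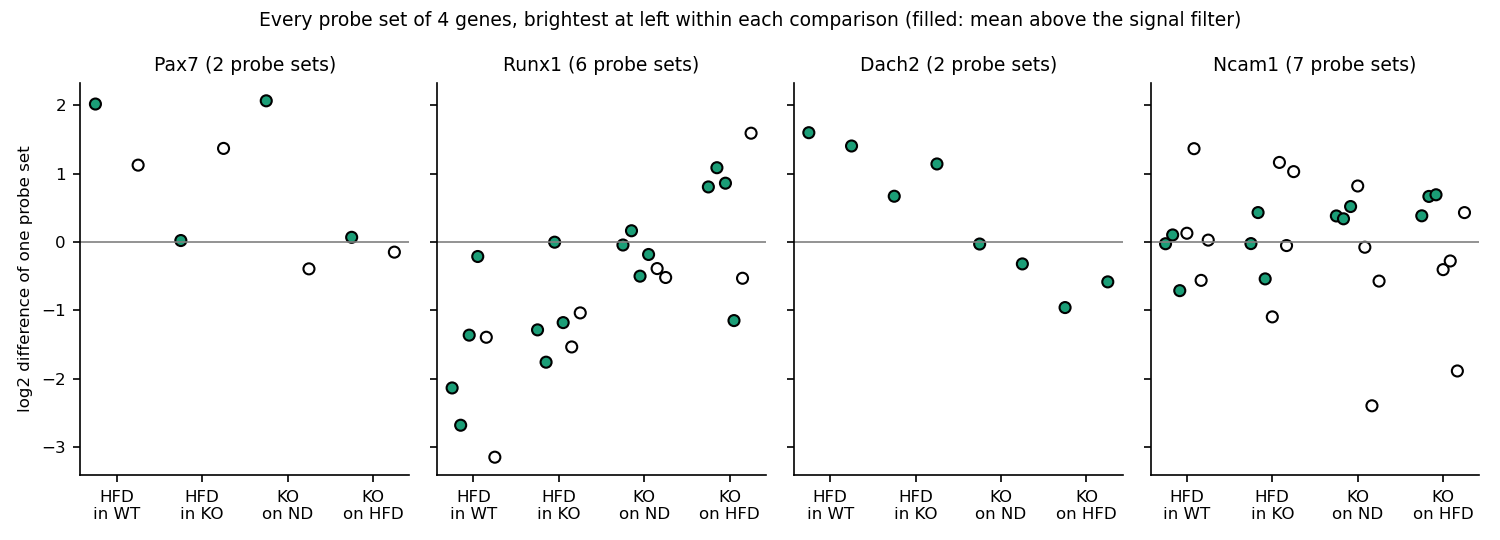
Log2 differences (vertical axis) of every probe set of Pax7, Runx1, Dach2 and Ncam1 in the 4 comparisons of single groups, brightest at the left, filled where the mean lies above the signal filter. All 6 Runx1 probe sets lie below 0 for diet in both genotypes, the nearest to 0 at −0.21 in WT and −0.0014 in KO. Both Dach2 probe sets lie above 0 for diet, and the Pax7 probe sets part for KO on the normal diet, at 2.07 and −0.39.

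Chrna1, the alpha subunit of the muscle acetylcholine receptor, passed in 0 comparisons. It read 7.16, 6.76 and 6.38 in WT ND, 7.24, 6.81 and 7.04 in WT HFD, 6.87, 6.77 and 6.66 in KO ND, and 7.05, 6.86 and 7.23 in KO HFD. All groups overlapped. The diet difference was 0.26 in WT (95% interval −0.15 to 0.67) and 0.28 in KO (−0.13 to 0.69). The averaged difference was 0.27 (−0.02 to 0.56, limma adjusted p = 0.204), and the intervals leave room for changes of about that size.

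Chrng, the fetal gamma subunit that reappears in denervated muscle, stayed below the signal filter. Its 3 probe sets averaged 0.62, 0.56 and 0.51, and it was not tested. The brightest read 0.42, 0.95 and 3.18 in WT ND, 0.13, 1.18 and −0.19 in WT HFD, 0.12, 1.19 and −0.83 in KO ND, and 2.75, −0.90 and −0.59 in KO HFD. Single arrays of WT ND and KO HFD stood highest, all 4 groups overlapped, and no direction was read.

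Ncam1, a surface protein of satellite cells, denervated fibres and Schwann cells, did not pass in any comparison. It read 4.53, 4.39 and 4.66 in WT ND, 4.59, 4.59 and 4.33 in WT HFD, 5.22, 4.70 and 4.80 in KO ND, and 5.30, 4.60 and 4.76 in KO HFD. The KO arrays lay above the WT arrays on each diet, by small margins. Averaged over diets KO was 0.38 above WT (95% interval −0.04 to 0.80, limma adjusted p = 0.380). Of its 7 probe sets, 3 averaged above the filter, and those 3 were higher in KO on both diets, while 3 of 7 overall were lower on each. The summed signal of 8 tested Schwann cell and nerve markers was 904.7 to 1221 in WT ND, 798.9 to 964.6 in WT HFD, 1363 to 1537 in KO ND and 1001 to 1605 in KO HFD. Their part in the Ncam1 values was not tested.

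Gadd45a, Ampd3, Trim63, Fbxo32 and Fbxo30 fell with diet in both genotypes among the genes of the neuromuscular junction and denervation. Of 35 genes in that list 28 were tested. For diet in WT 2 rose and 6 fell, against 3.07% higher and 2.99% lower over all genes. In KO 0 rose and 6 fell, against 2.66% and 1.88%. This list and the satellite cell and differentiation lists below were chosen with earlier results of these data known. The shares beside their counts are therefore descriptions and not a test of the lists. The list medians were 0.01 in WT and 0.0070 in KO, beside 0.04 and 0.05 over all genes, with members on both sides of 0. The genes that fell in both genotypes were Gadd45a, a stress and denervation gene (−1.74 in WT and −1.33 in KO), Ampd3, an AMP deaminase (−1.72 and −1.47), Trim63 or MuRF1 (−0.80 and −0.79), Fbxo32 or atrogin-1 (−1.25 and −1.58) and Fbxo30 (−0.76 and −0.78). Trim63, Fbxo32 and Fbxo30 are ubiquitin ligases of muscle wasting. The sixth was Runx1 in WT and Myog in KO. The genes that rose in WT were Dach2 and Prkcq, protein kinase C theta (0.64, limma adjusted p = 0.0145). Both Gadd45a and both Trim63 calls, Ampd3 in WT and Fbxo32 in KO were kept under every alternative run, and Fbxo32 in WT was lost in 1, after adjustment for the integrity ratio (−1.39, adjusted p = 0.0657). Ampd3 in KO was lost without KO ND replicate 1 or 2 or KO HFD replicate 2 or 3 (adjusted p = 0.0667 to 0.0846). Fbxo30 in WT was lost without WT ND replicate 2 or WT HFD replicate 1 or 2 (adjusted p = 0.0652 to 0.108), and in KO without any of the KO arrays but KO ND replicate 3 (adjusted p = 0.0589 to 0.117). Prkcq was lost without WT ND replicate 2 or 3 (adjusted p = 0.0612 and 0.0624). Over all 23 alternatives Ampd3 in KO was lost in 5, Fbxo30 in 6 in WT and 7 in KO, and Prkcq in 3. The diet differences averaged over genotypes were −1.60 for Ampd3 (limma adjusted p = 0.000784) and −0.77 for Fbxo30 (adjusted p = 0.00173). Both averaged calls were kept under all 22 alternatives.

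**Figure D4:**
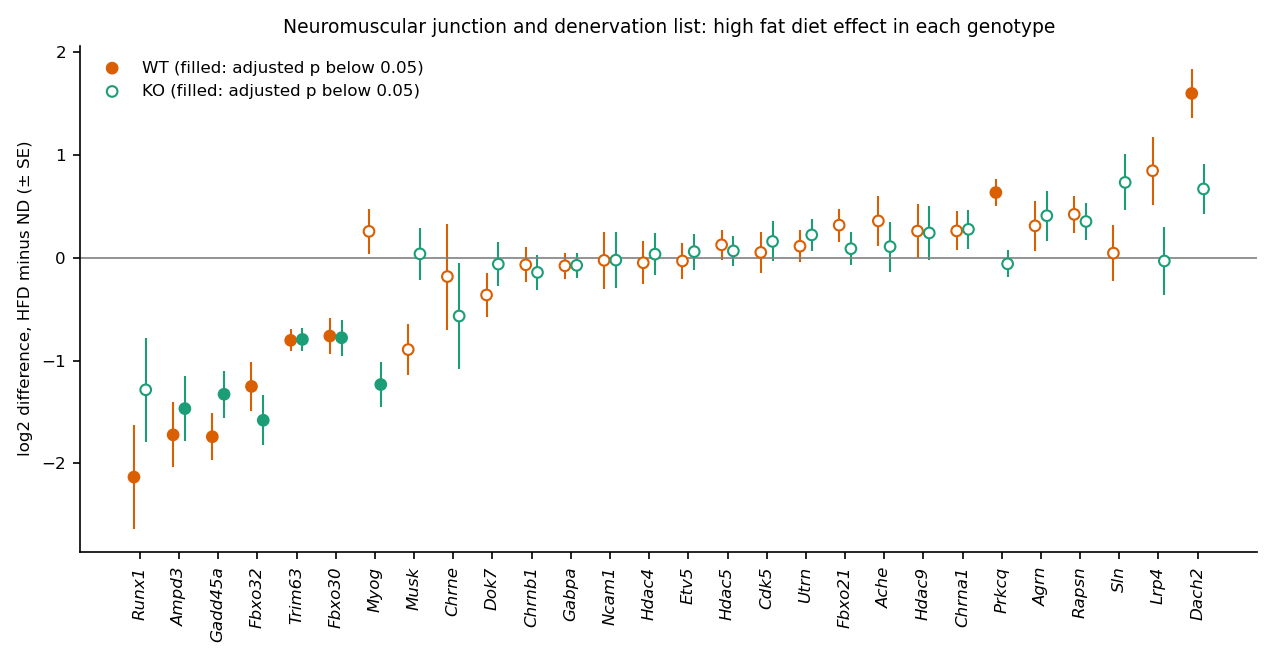
Log2 difference between diets (vertical axis, HFD minus ND, with SE) for the 28 tested genes of the neuromuscular junction and denervation list, in WT and in KO. Runx1, Ampd3, Gadd45a, Fbxo32, Trim63 and Fbxo30 stand at the low end and Dach2 at the high end, and Musk (−0.89) and Lrp4 (0.85) lie apart from 0 in WT without passing.

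The receptor subunits and postsynaptic genes of that list, grouped after their values were seen, were Chrna1, Chrnb1, Chrne, Musk, Rapsn, Dok7, Lrp4, Agrn, Ache and Utrn. In limma 0 of these 10 passed for diet in either genotype, with 3 at an unadjusted p below 0.05 in WT and 0 in KO. With 6.06% of all genes called in WT and 4.54% in KO, a count of 0 among 10 sets these genes apart in neither. Their differences ran from −0.89 (Musk, the receptor kinase of the synapse) to 0.85 (Lrp4, the agrin receptor) in WT (lowest adjusted p = 0.0527) and from −0.57 to 0.41 in KO (lowest adjusted p = 0.306). The subunit gene Chrnd and the collagen tail gene Colq stayed below the filter.

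Of the satellite cell genes, Sdc4 was lower on the high fat diet in both genotypes. Of 24 listed genes 21 were tested, and 3 were called for diet in WT and 2 in KO, against 6.06% and 4.54% of all genes. In WT Pax7 and Chrdl2, a chordin-like inhibitor of BMP signalling, were higher (1.02 for Chrdl2, limma adjusted p = 0.0494), and Sdc4, the proteoglycan syndecan-4, was lower (−0.93, adjusted p = 0.0182). In KO Sdc4 (−0.79, adjusted p = 0.0444) and Asb5 (−0.45, adjusted p = 0.0327) were lower and 0 were higher. Asb5 averaged a log2 signal of 12.23, within the range of the fibre markers (11.43 to 13.97). Sdc4 averaged 8.55 and Pax7 4.23. Which cells gave these signals in bulk muscle was not tested. The Chrdl2 call was lost in 11 of 12 fits that left out 1 mouse, all but the fit without KO HFD replicate 1 (values 0.81 to 1.20, adjusted p = 0.0516 to 0.158 where lost), and in 19 of 22 alternatives in all. Sdc4 in WT was lost without WT ND replicate 2 or 3 or WT HFD replicate 1 (adjusted p = 0.0659 to 0.0853). In KO Sdc4 was lost without any 1 of the KO arrays or WT ND replicate 3 (adjusted p = 0.0547 to 0.137), and Asb5 without any 1 of the KO arrays (adjusted p = 0.0651 to 0.121). Over all 23 alternatives Sdc4 was lost in 6 in WT and 11 in KO, and Asb5 in 9 in KO. Averaged over genotypes Sdc4 was at −0.86 (limma adjusted p = 0.00209), a call kept under all 22 alternatives. Asb5 was at −0.37 in the same average (adjusted p = 0.00652), a call lost in 1 of 22 alternatives. Chrdl2 was at 0.68 (adjusted p = 0.0405), lost in 13 of 21. The list median was 0.20 in WT and 0.21 in KO, beside 0.04 and 0.05 over all genes. For genotype 0 of 21 passed on either diet, against 0.414% of all genes on the normal diet and 0.732% on the high fat diet. A count of 0 sets the list apart on neither diet.

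Of the differentiation and fusion genes, Cdkn1a fell in both genotypes. Of 30 listed genes 27 were tested, and 2 rose and 1 fell with diet in WT, while 1 rose and 2 fell in KO, against 6.06% and 4.54% of all genes called. The log2 difference of Cdkn1a, the cell cycle inhibitor p21, was −2.13 in WT (limma adjusted p = 0.0285) and −2.55 in KO (adjusted p = 0.0166). Six4, a homeobox factor of the muscle lineage, rose in WT (0.65, adjusted p = 0.0362), as did Tcf4, an E protein and partner of the myogenic factors (0.33, adjusted p = 0.0468). Id2, an inhibitor that keeps such E proteins from the myogenic factors, rose in KO (1.04, adjusted p = 0.0332). Cdkn1a in WT was lost without WT ND replicate 2 or 3 or WT HFD replicate 1 or 2 (adjusted p = 0.0507 to 0.124), and in KO without KO ND replicate 1 or 2 or KO HFD replicate 2 or 3 (adjusted p = 0.0512 to 0.0640). Six4 was lost without WT ND replicate 2 or 3, WT HFD replicate 1 or 3, KO ND replicate 3 or KO HFD replicate 3 (adjusted p = 0.0506 to 0.139). Tcf4 was lost in 9 of 12 such fits, all but those without WT ND replicate 1, KO ND replicate 2 or KO HFD replicate 1 (adjusted p = 0.0558 to 0.158). Id2 was lost without any 1 of the KO arrays (adjusted p = 0.0654 to 0.0954). These are losses on leaving out a mouse, and other alternatives lost more. Over all 23 alternatives Cdkn1a was lost in 7 in WT and 5 in KO, Six4 in 10, Tcf4 in 16 and Id2 in 10. The diet difference of Cdkn1a averaged over genotypes was −2.34 (limma adjusted p = 0.00139), a call kept under all 22 alternatives. The averaged calls of Six4 (0.38, adjusted p = 0.0467) and Id2 (0.64, adjusted p = 0.0286) were lost in 15 and 10 of 22. The fusion genes Mymk and Mymx lay below the filter. Of 5 contractile genes of developing muscle, Myh3, Myh8, Actc1, Myl4 and Tnnt2, grouped after their values were seen, 0 passed for diet in limma, with 2 at an unadjusted p below 0.05 in WT and 0 in KO, a count too small to set against those shares. Their differences ran from −1.14 to −0.31 in WT and from −0.50 to 0.75 in KO.

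Across the 12 arrays, which share the group differences, the pair with the most negative correlation among the 9 genes was Runx1 and Dach2 (Pearson r = −0.84, and −0.44 after group means were removed). The most positive was Myod1 and Runx1 (0.68, and 0.65 after group means were removed). Myf5 and Myf6 had r = 0.49, and 0.85 after group means were removed. Myog and Dach2 had r = −0.15, and 0.62 after group means were removed. Among all 11345 genes, those nearest to Dach2 over the 12 arrays were Wdr24 (r = 0.985), Egflam (0.928) and Emg1 (0.927). Nearest to Runx1 were Wdr26 (0.980), Usp28 (0.966) and Ankrd10 (0.962). Nearest to Pax7 were Mcm6 (0.946), AW209491 (0.945) and Gm8273 (0.933), nearest to Myog were Mtrex (0.898), Lrrc8d (0.884) and 2310039H08Rik (0.875), and nearest to Myf6 were Nupl1 (0.906), Asb5 (0.877) and Zbed6 (0.836). With 12 arrays and this many genes some high correlations arise in any search, so these are descriptions only.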

How the data were processed

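The deposited values are log2 signals per probe set made by the authors with MAS5 (per the submitters' processing notes, which give no version). The 2 to 98% trimmed mean of the linear values was the same on all 12 arrays. Values were used as deposited, and depth does not apply to arrays. Of 45101 probe sets 64 controls were removed, and 34945 of the rest had a single symbol. Probe sets with a mean log2 signal above the median of 3.78 were kept, and the brightest per symbol gave 11345 genes. One limma 3.58.1 model under R 4.3.3 (4 group means, with moderation that follows intensity, 5.42 prior and 8 residual degrees of freedom) gave 7 contrasts, each with Benjamini-Hochberg adjustment over all genes, at 0.05. The model was also run on simulated data with independent noise for each gene. That simulation held no array, RNA integrity or cohort effects, so it does not vouch for the calls here. Intervals are 95%. Folds are antilogs of log2 differences. Alternatives were other probe sets, filters, offsets, scalings and moderation, array weights, adjustment for the 3′ over 5′ control ratio, a fit of the compared groups alone, and leaving out each mouse. Replicate numbers follow accession order. Genes named are the 10 members, members of 3 lists past the threshold, and the 3 most correlated genes of each called member. Other names (receptor and contractile genes, genes below the filter, and markers) are list members named to account for a count or range, chosen after their values were seen. The members and lists were chosen with earlier results of these data known. Figures were made in Python 3.11.15 with matplotlib 3.10.9.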

Additional observations from a re-analysis of the deposited data

How the results depend on the processing

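Of the 8 calls for the 10 genes, 4 were kept under every alternative run: Dach2 for diet in WT and averaged, Myog for diet in KO, and Runx1 for diet averaged. Over the 8 calls, 144 of 185 values under an alternative kept the call, 41 lost it and 0 changed direction. The number of genes called for diet in WT was 3, and 1 to 3 when a mouse was left out. Processing changed these calls too. Pax7 was lost with the second brightest probe set (limma adjusted p = 0.316) and with only the groups compared (adjusted p = 0.113). With a filter at the 65th percentile Pax7 was not tested. Runx1 was lost with no intensity trend (adjusted p = 0.0703) and with the ratio adjustment (adjusted p = 0.0806). For diet in KO it was 1, and 2 with a filter at the 65th percentile, median centring, the larger offset, array weights or adjustment for the 3′ over 5′ control ratio, and 1 to 2 when a mouse was left out. For KO on the normal diet it was 1, and 0 with every probe set tested, no filter, quantile normalization, median centring, no intensity trend, the ratio adjustment or only the groups compared, and 0 to 1 when a mouse was left out. For KO on the high fat diet it was 0, and 1 with the ratio adjustment. The cause of these changes was not tested. Over all genes the diet count in WT was 687, from 186 with the ratio adjustment to 1109 with every probe set tested. In KO it was 515, from 133 without KO ND replicate 2 to 881 with array weights. For KO on the normal diet it was 47, from 9 without WT ND replicate 2 to 90 with array weights. For KO on the high fat diet it was 83, from 7 without an intensity trend to 237 without WT HFD replicate 2. Averaged over genotypes the diet count was 1552, from 522 with the ratio adjustment to 2401 with every probe set tested, and the interaction count was 16, from 1 to 31. No paired analysis was possible because the labels give no replicate numbers shared between groups.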
